A study of Mus musculus with 8 samples.

Results

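Genes that copy DNA or divide the cell were followed in the pancreatic lymph nodes of Deaf1 knockout mice, and 40 of the 42 names chosen had a row on the array. Members were the non-control rows whose gene name was one of the 42 names, with the brightest probe above background standing for each gene. Gins2 had no row under that name, and Cdk1 was present only under its older symbol Cdc2a. All 40 passed the filter on dim probes, out of 18478 gene names tested and 27745 on the array. They fell into 9 S-phase genes (Mcm2 to Mcm7, Pcna, Rrm1 and Rrm2), 8 other replication genes (Tyms, Gins1, Cdc45l, Cdc6, Cdt1, Chek1, Ccne1 and Ccne2) and 23 mitotic genes.

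Each of 8 dual-colour Agilent arrays set pancreatic lymph node RNA of a BALB/c Deaf1 knockout, labelled with Cy5, against a pool of BALB/c wild-type littermate nodes of the same age, labelled with Cy3. There were 2 knockout samples at 4 weeks of age against a pool of 2 mice, 3 at 12 weeks against a pool of 3, and 3 at 30 weeks against a pool of 3. Deaf1 is a transcriptional regulator, and the labels name neither the deleted part nor a driver. No dye was swapped and no wild-type sample was set against a pool, so the spread between control mice is outside every test. The labels call the samples biological replicates.

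Before a cell divides it loads the MCM2-7 helicase on its replication origins, makes deoxynucleotides with ribonucleotide reductase, and copies its DNA with polymerases held by the PCNA clamp. Mitosis follows, driven by cyclin B and CDK1 and by the Aurora kinases, and it ends when the APC/C with CDC20 marks cyclin B and securin for degradation. In a lymph node these genes are best known from dividing lymphocytes, above all the B cells of germinal centres. E2F factors are known to act on many S-phase promoters, and the DREAM and MuvB complexes on the CHR element of many mitotic promoters, often beside CCAAT boxes bound by NF-Y.

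The promoters of 4 members are shown because they form pairs that were called in opposite directions at 30 weeks: Mcm2 higher and Mcm5 lower among the S-phase genes, Cdc20 higher and Top2a lower among the mitotic genes. Each line holds the 250 bases before the gene's start, 5′ to 3′ on the gene's strand, from RefSeq on GRCm38.p6. Capitals mark an E2F site (TTTCCCGC, TTTCGCGC, TTTGCCGC or TTTGGCGC), a CHR element (TTTGAA) or a CCAAT box, each on either strand. Mcm2 lies at chr6:88898781-88899030 and Cdc20 at chr4:118437344-118437593, both on the minus strand. Mcm5 lies at chr8:75109259-75109508 on the plus strand and Top2a at chr11:99024190-99024439 on the minus strand.
Mcm2: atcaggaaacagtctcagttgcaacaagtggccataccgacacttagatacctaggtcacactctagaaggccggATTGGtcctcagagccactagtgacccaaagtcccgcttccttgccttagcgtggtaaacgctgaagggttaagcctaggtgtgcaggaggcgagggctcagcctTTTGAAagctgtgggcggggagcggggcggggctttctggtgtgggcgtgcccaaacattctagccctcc
Mcm5: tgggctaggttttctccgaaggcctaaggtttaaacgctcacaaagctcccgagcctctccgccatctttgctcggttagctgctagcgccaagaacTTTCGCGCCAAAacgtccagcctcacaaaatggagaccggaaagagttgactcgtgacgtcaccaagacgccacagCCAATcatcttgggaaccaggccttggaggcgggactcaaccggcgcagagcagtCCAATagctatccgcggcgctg
Cdc20: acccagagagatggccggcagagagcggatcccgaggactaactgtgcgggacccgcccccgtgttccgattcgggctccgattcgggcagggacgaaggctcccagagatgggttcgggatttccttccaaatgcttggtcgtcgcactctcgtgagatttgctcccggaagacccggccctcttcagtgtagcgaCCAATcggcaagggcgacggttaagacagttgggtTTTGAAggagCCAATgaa
Top2a: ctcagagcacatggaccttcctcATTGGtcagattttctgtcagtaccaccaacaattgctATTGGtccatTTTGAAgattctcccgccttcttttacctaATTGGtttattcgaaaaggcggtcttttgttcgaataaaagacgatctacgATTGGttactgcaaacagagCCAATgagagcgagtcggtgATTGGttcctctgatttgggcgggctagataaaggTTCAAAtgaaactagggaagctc
Positions are counted from the gene's start. The Mcm2 stretch held a CHR element at -70 and a CCAAT box on the reverse strand at -175, and no E2F site. The Mcm5 stretch held an E2F site on each strand, at -153 and -149 and overlapping each other, with CCAAT boxes at -77 and -22. Cdc20 and Top2a each held a CHR element near the start, at -18 and -23, with CCAAT boxes beside it. The motifs thus differed within the S-phase pair and were shared within the mitotic pair. Rrm1, the other S-phase gene called lower at 30 weeks, held neither an E2F site nor a CHR element, so the S-phase contrast depends on the gene shown. The directions also have limits described below. The Mcm5 ratio turned to 0.06 under median centring without loess, and another Top2a probe read 0.16.

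Across the members, motifs followed role. Windows of 250 bases before and 50 after the start were held by the RefSeq table for 32 of the 40 members, and the other 8 were Mcm4, Ccne2, Gins1, Aurkb, Ccna2, Foxm1, Kif20a and Tpx2. An E2F site was found in 4 of 8 S-phase genes (Mcm3, Mcm5, Mcm6 and Mcm7), in 2 of 6 other replication genes (Cdc6 and Cdt1) and in 1 of 18 mitotic genes (Cdk1), against 2.26% of all 32851 windows. The CHR element was found in 13 of 18 mitotic genes, or 72.2%, in 1 of 8 S-phase genes (Mcm2) and in 1 of 6 other replication genes (Cdc45), against 17.9% of windows. CCAAT boxes were found in all 8 S-phase genes and in 16 of 18 mitotic genes, against 37.4% of windows, and in 1 of 6 other replication genes. A match is a description of letters in a window and was not tied to binding here. The knockout ratios of the groups lay close together: at 12 weeks the median log2 ratio was 0.20 over the 7 genes with an E2F site and 0.24 over the 15 with a CHR element, and at 30 weeks 0.05 and 0.14.

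**Figure D1:**
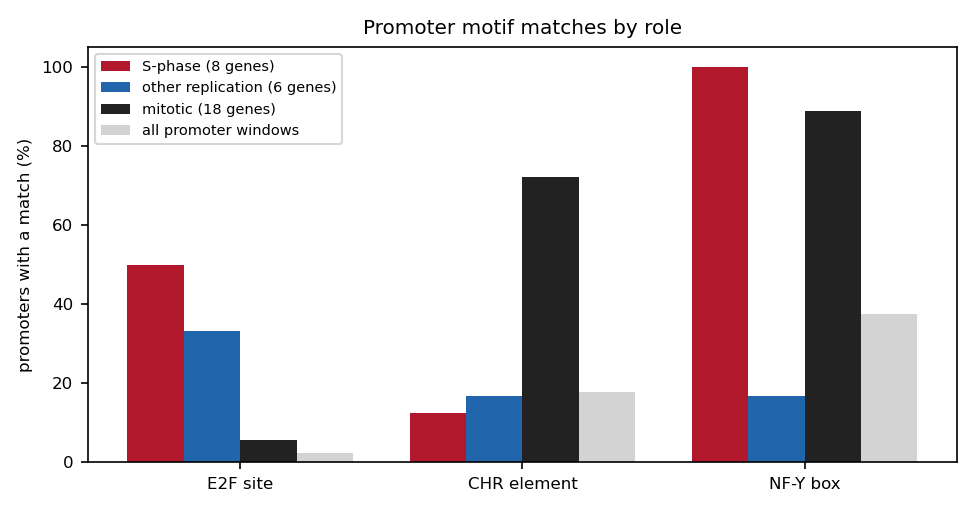
Share of promoter windows, in percent, that held an E2F site, a CHR element or a CCAAT box (drawn as the NF-Y box), for S-phase (8 genes), other replication (6 genes) and mitotic (18 genes) members and for all windows (grey). The CHR element was found in 72.2% of the mitotic genes and the E2F site in 50% of the S-phase genes.

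Between 37.2% and 62.6% of probes stood well above background in Cy3 and between 46.8% and 71.4% in Cy5, and the number of arrays limits the precision. All 4-week arrays lay on 1 slide read by another scanner and software version than the rest. Slide 2 held the 12-week arrays and 30-week replicate 1, and slide 3 the other two 30-week arrays. The log2 ratio of 12-week replicate 2 correlated with those of replicates 1 and 3 at 0.17 and 0.08 across genes, while the latter pair gave 0.58. Xist, which marks female RNA, was 5.32 log2 units above its pool on 12-week replicate 2, with the Y-linked Ddx3y at -3.89 and Eif2s3y at -4.86, and the labels give no sex. The pools differed too: the wild-type Xist level was 7.55 to 7.71 at 12 weeks and at least 12.6 at 4 and 30 weeks, and that of Ddx3y was 9.05 to 9.17 at 12 weeks and not well above background at the other ages. At 30 weeks the median log2 ratio of 7 pancreatic acinar markers was -4.61, 3.98 and -4.58, with replicate 2 opposite to the others. Deaf1 itself had log2 ratios at its brightest probe of -0.22 and -0.12 at 4 weeks, 0.34, 0.35 and 0.32 at 12 weeks and 0.14, 0.0047 and 0.15 at 30 weeks. The 4-week ratio of -0.17 did not pass (limma adjusted p = 0.127). The 12-week ratio of 0.34 was called (limma adjusted p = 0.0345), a call lost in 8 of 18 alternatives, the deposited value table among them. A further kept Deaf1 probe read 3.11 on 30-week replicate 2 and -0.74 and -0.62 on the other 30-week arrays. The labels do not say which part of the gene is deleted, so neither probe checks the genotype.

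A gene was called where limma's moderated test gave a Benjamini-Hochberg adjusted p under 0.05 over all 18478 genes, and every value below is a log2 ratio of knockout over wild type unless it is named a level. At 4 weeks 9 of the 40 members were called, 7 higher and 2 lower, a share of 22.5% beside a background of 22.7% of all genes. At 12 weeks none was called, against 2.59% of genes. At 30 weeks 10 were called, 4 higher and 6 lower, a share of 25% beside 39.1% of genes. By direction the background was 15.3% higher and 7.35% lower at 4 weeks, 1.22% and 1.37% at 12 weeks, and 20.8% higher and 18.3% lower at 30 weeks. The split moved with the scaling: with the scanner's processed ratio it was 8 higher and 1 lower at 4 weeks and 4 and 2 at 30 weeks, and in the deposited value table it was 7 and 5, and 4 and 4. Under median centring without loess, where the median of all genes moved to 0.49 at 4 weeks and 0.16 at 30 weeks, it was 30 and 0, and 11 and 0, and at 12 weeks 37 and 0. The share of all genes called at 4 and 30 weeks was 26.6% and 30% with the scanner's ratio and 35.3% and 38.6% in the deposited table. Without loess it was 52.9% at 4 weeks, 56% at 12 weeks and 28% at 30 weeks. Under loess the members' share lay at the background at 4 weeks and below it at 30 weeks. Mcm4 alone was called at both ages, and none was called in opposite directions.

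The median over the 40 members was 0.04 at 4 weeks, 0.26 at 12 weeks and 0.05 at 30 weeks, where that of all genes was 0.02, 0.02 and 0.03. The 4-week median turned to -0.09 in the authors' deposited value table, while the 12- and 30-week medians stayed above 0 under all 4 scalings tried. The median of all genes was above 0 there too. Without loess the members had 0.78 and 0.35, against 0.41 and 0.16 for all genes. With the scanner's processed ratio they had 0.36 and 0.09, against 0.10 and 0.08, and at 4 weeks 0.06 against 0.14. At 12 weeks 37 of the 40 had a mean above 0, compared with 21 at 4 weeks and 24 at 30 weeks. Of the 40, 26 lay above 0 on all 3 12-week arrays and none lay below 0 on all 3, where 24.7% and 18.5% of all genes did so.

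That 12-week lean gave no calls in this fit. Under median centring without loess 37 members were called higher, beside 56% of all genes, and with slide as a random block 35, beside 48.8%. The block's correlation was -0.26, and all 12-week arrays share a slide. A negative correlation narrows the error of their mean, so that count is no support for the lean. The lowest adjusted p among the members was 0.0504 by limma, and 23 of 40 had an unadjusted p under 0.05, all of them higher, against 25.7% of genes. The member median was 0.46 on 12-week replicate 1, 0.20 on replicate 2 and 0.14 on replicate 3. Replicate 1 was thus the highest, and it gave the highest value of the 3 for 32 of the 40 genes. Without it the median was 0.19, with 36 of 40 above 0. Without replicate 2, the array whose Xist ratio set it apart, 4 members were called higher (Mcm2, Pcna, Rrm2 and Ube2c), beside 10.1% of all genes.

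**Figure D2:**
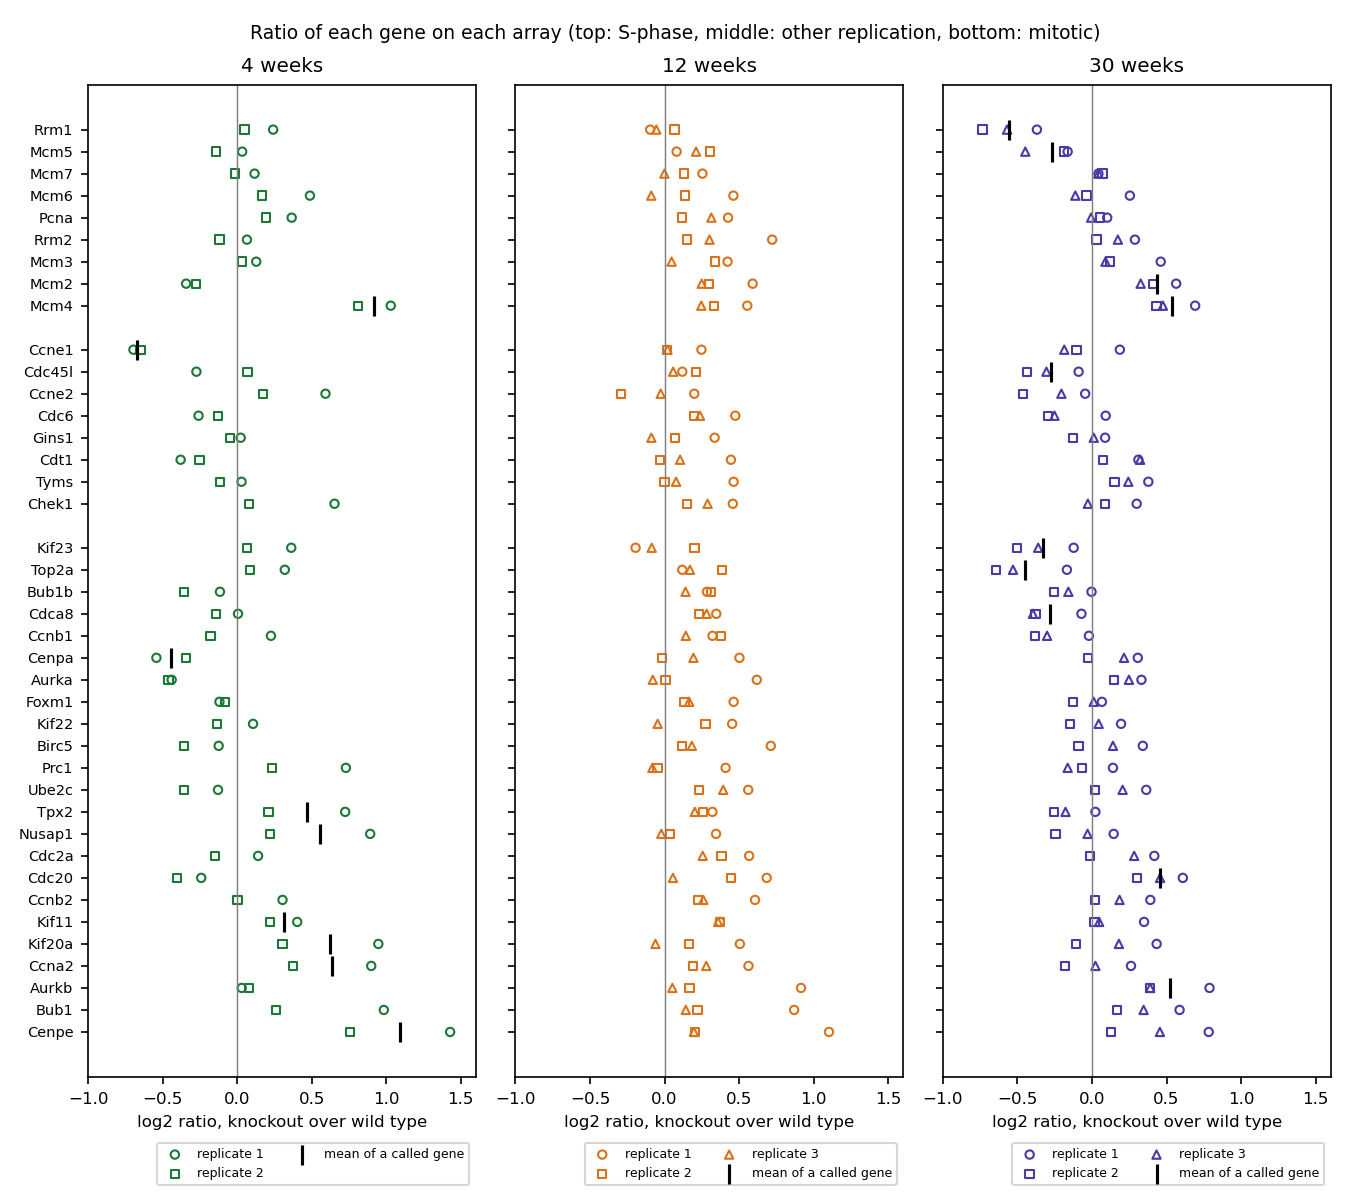
Log2 ratio of knockout over wild type (x axis) of each of the 40 genes (y axis, S-phase at the top, other replication in the middle, mitotic at the bottom) at 4, 12 and 30 weeks. Open symbols are arrays and black bars the means of called genes; 9, 0 and 10 genes carry a bar, and 26 genes lie above 0 on all 3 arrays at 12 weeks.

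No gap between S-phase and mitotic genes was detectable with these arrays. The S-phase median minus the mitotic median was taken on each array and averaged over the arrays of an age. It was -0.03 ± 0.09 at 4 weeks (SD over arrays, n = 2), -0.03 ± 0.07 at 12 weeks (n = 3) and 0.03 ± 0.10 at 30 weeks (n = 3). Each difference lay within its SD. Under median centring without loess the differences were 0.22, 0.15 and 0.15, where the median of all genes was 0.49, 0.41 and 0.16. Medians over the fitted ratios, where each gene is first averaged over arrays, are another statistic, and their gaps differ in size and sign from those above. For the S-phase genes they were 0.08, 0.27 and 0.05 at the 3 ages, and for the mitotic genes 0.05, 0.28 and 0.13. The other replication genes had -0.07, 0.15 and -0.02.

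**Figure D3:**
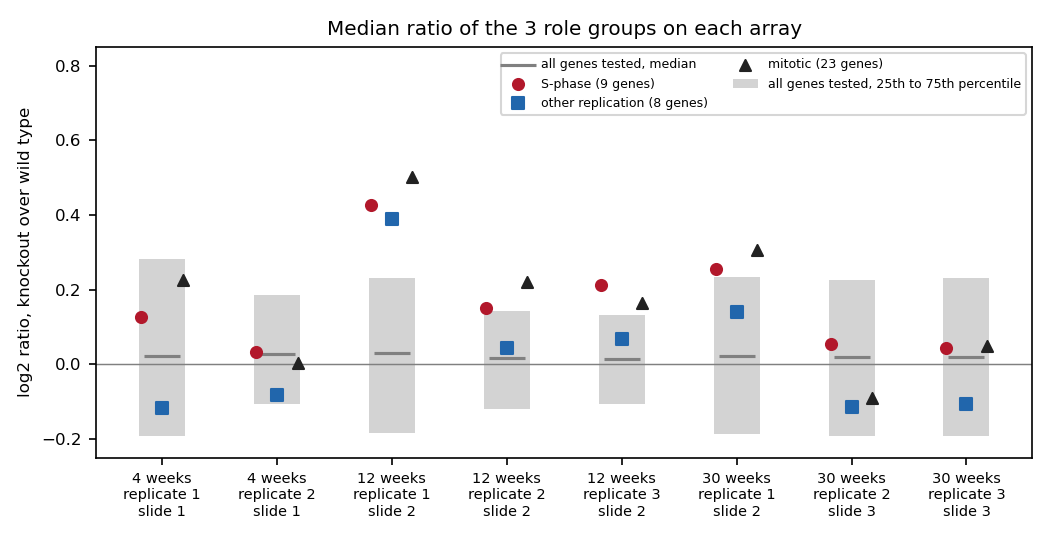
Median log2 ratio of the S-phase (red circles), other replication (blue squares) and mitotic genes (black triangles) on each array, with the median of all genes tested (grey line) and their 25th to 75th percentile (grey box). The 3 medians are highest on 12-week replicate 1, at 0.43, 0.39 and 0.50.

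Within the MCM helicase the subunits parted. Mcm4 was 1.03 and 0.81 on the 4-week arrays, 0.55, 0.33 and 0.25 on the 12-week arrays, and 0.69, 0.43 and 0.48 on the 30-week arrays. It lay above 0 on all 8 arrays. The fitted ratio was 0.92 ± 0.10 at 4 weeks (SE, n = 2, limma adjusted p = 0.00102), 0.38 ± 0.08 at 12 weeks (n = 3, adjusted p = 0.0552) and 0.53 ± 0.08 at 30 weeks (n = 3, adjusted p = 0.00237). Its calls at 4 and 30 weeks were kept under all 18 alternatives tried. The probe lies at chr16:15537857-15537916 in the mm8 build that the array's annotation uses, and its other probe was not above background.

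Mcm2 read -0.34 and -0.28 at 4 weeks, 0.59, 0.30 and 0.25 at 12 weeks, and 0.56, 0.41 and 0.33 at 30 weeks. The 4-week arrays were below 0 and all 6 later arrays above it, but under median centring without loess the 4-week ratio turned to 0.56 and was called higher. At 30 weeks Mcm2 was higher by 0.43 ± 0.08 (n = 3, limma adjusted p = 0.00444), a call kept under all 18 alternatives, and the 4-week value of -0.31 did not pass (adjusted p = 0.0581). The difference between the ages passed in limma, at 0.74 ± 0.13 for 30 minus 4 weeks (adjusted p = 0.00776) and 0.69 ± 0.13 for 12 minus 4 weeks (adjusted p = 0.0224). Without 4-week replicate 1 neither difference passed, and without 4-week replicate 2 the 12-week one did not, with limma adjusted p up to 0.185.

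Mcm5 went the other way at 30 weeks, with -0.16, -0.19 and -0.45, a ratio of -0.27 ± 0.08 (n = 3, limma adjusted p = 0.0283). At 12 weeks it had read 0.08, 0.30 and 0.21, above all the 30-week arrays, and at 4 weeks 0.03 and -0.14. Leaving out any 1 of the 30-week arrays ended the call, with adjusted p up to 0.196, and under median centring without loess the ratio turned to 0.06. Both Mcm2 (chr6:88849266-88849325, mm8) and Mcm5 (chr8:78023523-78023583, mm8) had a single probe.

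Mcm3, Mcm6 and Mcm7, the remaining subunits, were not called at any age. Mcm3 lay above 0 on all 8 arrays, between 0.03 and 0.46. Mcm6 ranged from -0.11 to 0.49 and Mcm7 from -0.02 to 0.25. For Mcm3 the probe mattered: the one used (chr1:20788189-20788248, mm8) gave 0.22 ± 0.21 (SD, n = 3) at 30 weeks, and another at chr1:20790433-20790949 gave -0.71 ± 0.20, with -0.48, -0.83 and -0.81 on the arrays.

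The ribonucleotide reductase subunits parted too. Rrm1, the large subunit, read 0.24 and 0.05 at 4 weeks, -0.10, 0.07 and -0.06 at 12 weeks, and -0.37, -0.73 and -0.57 at 30 weeks. All 3 30-week arrays lay below the other 5. Rrm1 was lower at 30 weeks by -0.56 ± 0.08 (n = 3, limma adjusted p = 0.00185), and the difference from 4 weeks was -0.70 ± 0.13 (adjusted p = 0.00932). The 30-week call was lost in 1 of 18 alternatives, median centring without loess, where it was -0.24. Rrm1's probe lies at chr7:102342530-102342590 (mm8).

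Rrm2, the small subunit that limits the enzyme in cycling cells, was not called: 0.07 and -0.12 at 4 weeks, 0.72, 0.15 and 0.30 at 12 weeks, and 0.29, 0.03 and 0.17 at 30 weeks. Pcna, the sliding clamp, was above 0 on 7 of 8 arrays, with 0.37 and 0.19 at 4 weeks and -0.01 as its lowest value. Its 4-week ratio of 0.28 just missed the threshold (limma adjusted p = 0.0579), as did its 12-week ratio of 0.29 (adjusted p = 0.0722).

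**Figure D4:**
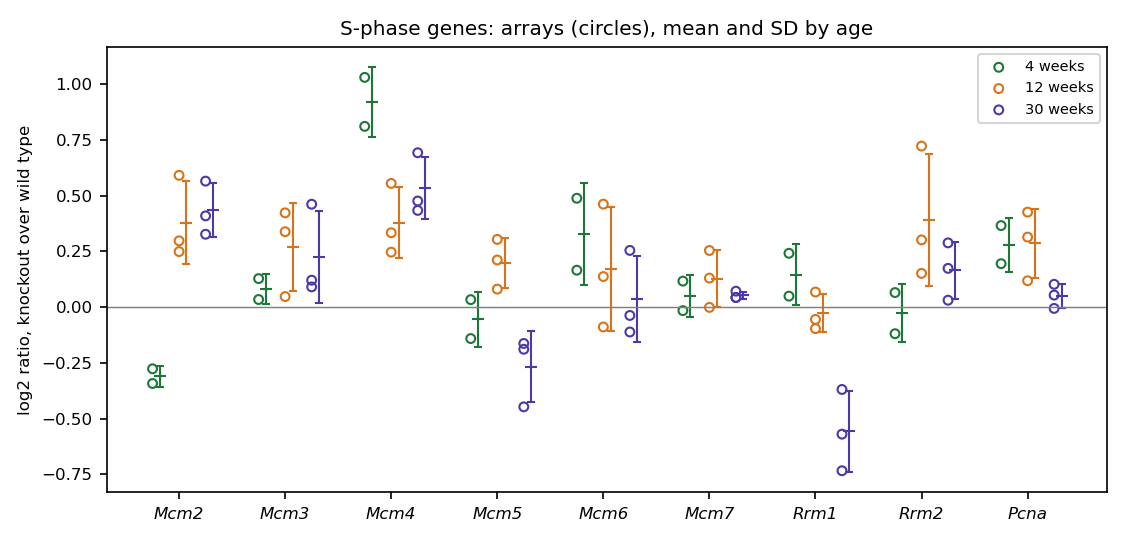
Log2 ratio of the 9 S-phase genes on each array (open circles), with mean and SD beside them, at 4 weeks (green), 12 weeks (orange) and 30 weeks (purple). Mcm4 lies above 0 on all 8 arrays, and the 30-week arrays of Rrm1 lie between -0.73 and -0.37.

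Among the 8 other replication genes 1 was called at each of 4 and 30 weeks, both lower. That was 12.5% at each age, beside 7.35% and 18.3% of all genes called lower. Ccne1, the cyclin E that drives entry into S phase with CDK2, read -0.70 and -0.65 at 4 weeks, 0.25, 0.02 and 0.02 at 12 weeks, and 0.19, -0.10 and -0.19 at 30 weeks. The 4-week arrays lay below all 6 later arrays. A further kept probe of the gene read -0.43 and -0.10 at 4 weeks. Its 4-week ratio was -0.67 ± 0.10 (n = 2, limma adjusted p = 0.00362), and it differed from 12 weeks by 0.77 ± 0.13 (adjusted p = 0.0174) and from 30 weeks by 0.64 ± 0.13 (adjusted p = 0.0153). Neither difference passed with the scanner's processed ratio or under median centring without loess. Over all alternatives their lowest values were 0.49 and 0.0079. The 4-week call was lost without replicate 1 (limma adjusted p = 0.0833), and under median centring without loess the ratio turned to 0.22. Ccne2, the other cyclin E, read 0.59 and 0.17 at 4 weeks and was not called.

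Cdc45l, the CMG helicase subunit, was lower at 30 weeks, with -0.09, -0.43 and -0.31 and a ratio of -0.28 ± 0.09 (n = 3, limma adjusted p = 0.0382). Its call was lost without 30-week replicate 2 or 3, or 12-week replicate 3, with adjusted p up to 0.196. Cdc6 and Cdt1, which load the helicase, were both below 0 on the 4-week arrays: -0.26 and -0.13 for Cdc6, -0.38 and -0.25 for Cdt1. Neither passed at 4 weeks, but Cdt1 did in the difference, 0.55 for 30 minus 4 weeks (limma adjusted p = 0.0398), with 0.31, 0.07 and 0.32 at 30 weeks. Tyms, which makes thymidylate, Gins1, of the same helicase, and Chek1, the replication checkpoint kinase, were not called at any age. Tyms ranged from -0.11 to 0.46, Gins1 from -0.13 to 0.34 and Chek1 from -0.03 to 0.65.

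Of the mitotic genes, 23 of the 40 members, 6 were called higher and 1 lower at 4 weeks. That was 26.1% and 4.35%, beside 15.3% and 7.35% of all genes. Cenpe, a kinetochore motor, had the highest ratio, 1.43 and 0.76 at 4 weeks, with 1.10, 0.20 and 0.20 at 12 weeks and 0.78, 0.13 and 0.46 at 30 weeks. It was above 0 on all 8 arrays, and replicate 1 was the highest at each age. The 4-week ratio was 1.09 ± 0.25 (n = 2, limma adjusted p = 0.0168), and the gene's other kept probes gave 0.40 and 0.30. Ccna2, cyclin A, read 0.90 and 0.37 at 4 weeks, a ratio of 0.64 ± 0.15 (n = 2, limma adjusted p = 0.0188).

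The spindle genes called with them gave smaller ratios. Tpx2, which activates Aurora A on the spindle, read 0.72 and 0.21 (ratio 0.47 ± 0.12, limma adjusted p = 0.0275), and Nusap1, a microtubule bundler, 0.89 and 0.22 (ratio 0.56 ± 0.16, adjusted p = 0.0412). Kif20a, the kinesin of the midzone, read 0.95 and 0.30 (ratio 0.62 ± 0.19, limma adjusted p = 0.0442). Kif11, the kinesin that pushes spindle poles apart, read 0.40 and 0.22 (ratio 0.31 ± 0.10, limma adjusted p = 0.0484). In each of these genes replicate 1 lay above replicate 2. The calls were lost without 30-week replicate 1 or 3 for Kif20a and Nusap1, and without 12-week replicate 3 for Nusap1. That on Kif11 was lost without any 1 of the 12-week arrays, or without 30-week replicate 2 or 3.

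Cenpa, the histone H3 variant of centromeres, was the mitotic gene called lower, at -0.54 and -0.35 (ratio -0.44 ± 0.13, n = 2, limma adjusted p = 0.0410). It turned to 0.22 under median centring without loess, and the call was lost without either 4-week array, 12-week replicate 3 or 30-week replicate 1 or 3. Aurka, Aurora A, read -0.44 and -0.46 but did not pass at 4 weeks, and passed in the difference from 30 weeks, 0.69 (limma adjusted p = 0.0401). Leaving out a 4-week array leaves 1 at that age, which is assumed to vary like the other ages. With replicate 2 as the lone 4-week array the 4-week member median was -0.0066, and with replicate 1 alone it was 0.12. The 4-week calls thus rest on 2 arrays that differ. On the 4-week arrays, 32 of the 40 members were higher on replicate 1 than on replicate 2.

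At 30 weeks 2 mitotic genes were higher and 3 lower, or 8.7% and 13%, beside 20.8% and 18.3% of all genes. Cdc20, the activator of the APC/C, read 0.61, 0.30 and 0.46, a ratio of 0.46 ± 0.11 (n = 3, limma adjusted p = 0.0143), after -0.24 and -0.40 at 4 weeks. The difference of 0.78 passed (limma adjusted p = 0.0213). Its probe is at chr4:117930863-117930922 (mm8), the gene's only one on the array. Aurkb, the kinase of the chromosomal passenger complex, read 0.79, 0.39 and 0.39, a ratio of 0.52 ± 0.16 (limma adjusted p = 0.0289). The call on Aurkb was lost without any 1 of the 30-week arrays, and that on Cdc20 without replicate 1 or 3.

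Top2a, topoisomerase IIα, which untangles sister chromatids, was lower: -0.17, -0.64 and -0.53 at 30 weeks (ratio -0.45 ± 0.10, n = 3, limma adjusted p = 0.00948). On the other arrays it was above 0, with 0.32 and 0.08 at 4 weeks and 0.12, 0.39 and 0.17 at 12 weeks. The difference from 4 weeks was -0.65 (limma adjusted p = 0.0265). Another kept probe, at chr11:98831137-98832164 (mm8), read 0.16 ± 0.27 (SD, n = 3) at 30 weeks, against -0.45 for the probe used at chr11:98812020-98812834, so the direction rested on the probe.

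Cdca8, borealin of the passenger complex, read -0.07, -0.38 and -0.40 at 30 weeks (ratio -0.28 ± 0.08, n = 3, limma adjusted p = 0.0214), and Kif23, a centralspindlin kinesin, -0.12, -0.50 and -0.36 (ratio -0.33 ± 0.10, adjusted p = 0.0352). Neither held on the gene's other probe, with 0.01 for Cdca8 and -0.05 for Kif23. Without 30-week replicate 2, or without replicate 3, the calls on Top2a, Cdca8 and Kif23 were lost, and that on Kif23 also without 12-week replicate 3. Cdca8 and Aurkb, partners in 1 complex, had opposite signs at these probes under loess, while under median centring without loess Cdca8 was at 0.026. Birc5, survivin of the same complex, was not called, at 0.34, -0.09 and 0.14.

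Of the 18 members called at 4 or 30 weeks, 12 were mitotic, as are 23 of all 40 members. The mitotic genes not called at any single age were Aurka, Birc5, Bub1, Bub1b, Ccnb1, Ccnb2, Cdc2a, Foxm1, Kif22, Prc1 and Ube2c. Bub1, a spindle checkpoint kinase, and Ccnb2, a cyclin B, were above 0 on all 8 arrays, from 0.14 to 0.98 for Bub1. Bub1b, the partner checkpoint protein, was above 0 on the 12-week arrays only, at 0.28, 0.31 and 0.14. Ccnb1, the main cyclin B, read 0.32, 0.38 and 0.14 at 12 weeks, and -0.02, -0.38 and -0.30 at 30 weeks. Cdc2a, the CDK1 kinase, read 0.57, 0.38 and 0.26 at 12 weeks, and Ube2c, an APC/C partner enzyme, 0.56, 0.23 and 0.39, with adjusted p of 0.0680 and 0.0576 by limma. Foxm1, the transcription factor of many G2 and M genes, ranged from -0.13 to 0.46, Kif22, a chromosome kinesin, from -0.15 to 0.45, and Prc1, which bundles midzone microtubules, from -0.16 to 0.73.

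More than 1 probe above background was present for 13 members, with 16 other probes in all. Of the 16, 14 had the sign of the probe used at 4 weeks, 11 at 12 weeks and 9 at 30 weeks. The median size of the difference was 0.11, 0.11 and 0.27 log2 units, so the probe chosen mattered most at 30 weeks.

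The ages were also set against each other, though each age has its own wild-type pool and the 4-week arrays their own slide, scanner and software, and the 12-week pool stood apart from the other pools in Xist and Ddx3y, so age cannot be told apart from these. For 12 minus 4 weeks 4 members were called, 3 higher (Ccne1, Mcm2 and Ube2c) and Mcm4 lower, a share of 10% beside 6.95% of genes (1.36% higher and 5.59% lower). For 30 minus 4 weeks 9 were called, 6 higher and 3 lower, 22.5% beside 18.8% (7.11% higher and 11.7% lower). For 30 minus 12 weeks none was called by limma, beside 0.79% of genes. There 10 members had an unadjusted p under 0.05, a share of 25% beside 21.1% of all genes, and all 10 were lower. The lowest adjusted p there was 0.0604, for Cdca8. Without 12-week replicate 1, 4 members were called lower there (Cdca8, Mcm5, Rrm1 and Top2a), beside 15% of all genes. These calls against 4 weeks draw on both 4-week arrays. A fit with 1 4-week array has no spread of its own at that age, so only sizes are given here. The differences themselves kept their direction. With replicate 2 as the lone 4-week array that of Ccne1 for 12 minus 4 weeks was 0.74. For 30 minus 4 weeks that of Cdc20 was 0.86, and that of Tpx2, the lowest in size, -0.34.

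In 33 of the 40 members the 30-week mean lay below the 12-week mean, with a median difference of -0.18. Within slide 2, the one slide with both ages, the median difference was -0.0027, but the 30-week arm there is replicate 1 alone, the highest of its age in 38 of 40 members. The member median of replicate 1 was 0.46 at 12 weeks and 0.26 at 30 weeks on that slide, and the 30-week arrays on slide 3 had -0.05 and 0.03. Replicate 1 was the highest at 4 and 12 weeks too, in 32 of 40 members at each, where an age lies on 1 slide. Slide and replicate cannot be told apart at 30 weeks.

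The levels, as distinct from the ratios, were higher at 4 weeks in both genotypes, described here with no test. The 4-week arrays have their own slide, scanner, software and wild-type pool, so age cannot be told apart from these in the levels. Both levels of a gene on an array were derived from its average brightness and its ratio there, so the genotypes are not separate evidence. On the normalised log2 intensity scale the wild-type level of 30 of the 40 members was higher on both 4-week arrays than on all 6 later ones, 75% against 30.8% of all genes. In the knockout it was 23 members, 57.5% against 25.3%. The median member was 0.73 log2 units higher at 4 weeks in the wild type and 0.67 in the knockout, against -0.02 and 0.02 for all genes. Levels of different probes were not compared with each other.

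Birc5 had the widest gap in the wild type, with a mean level of 14.01 at 4 weeks, 11.21 at 12 weeks and 11.14 at 30 weeks. The Aurka levels were 11.97, 9.72 and 9.77, and those of Mcm6 13.75, 12.29 and 12.33. All 8 other replication genes, 8 of 9 S-phase genes and 14 of 23 mitotic genes were higher at 4 weeks in the wild type. Top2a had a lower level at 4 weeks, 7.28 against 8.14 and 8.06. For Mcm2, whose ratio differed between ages, the wild-type level was 10.13 at 4 weeks and 9.47 at 30 weeks, and the knockout level 9.82 and 9.90. In whole-node RNA, fewer cells of a type and less RNA per cell cannot be told apart.

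**Figure D5:**
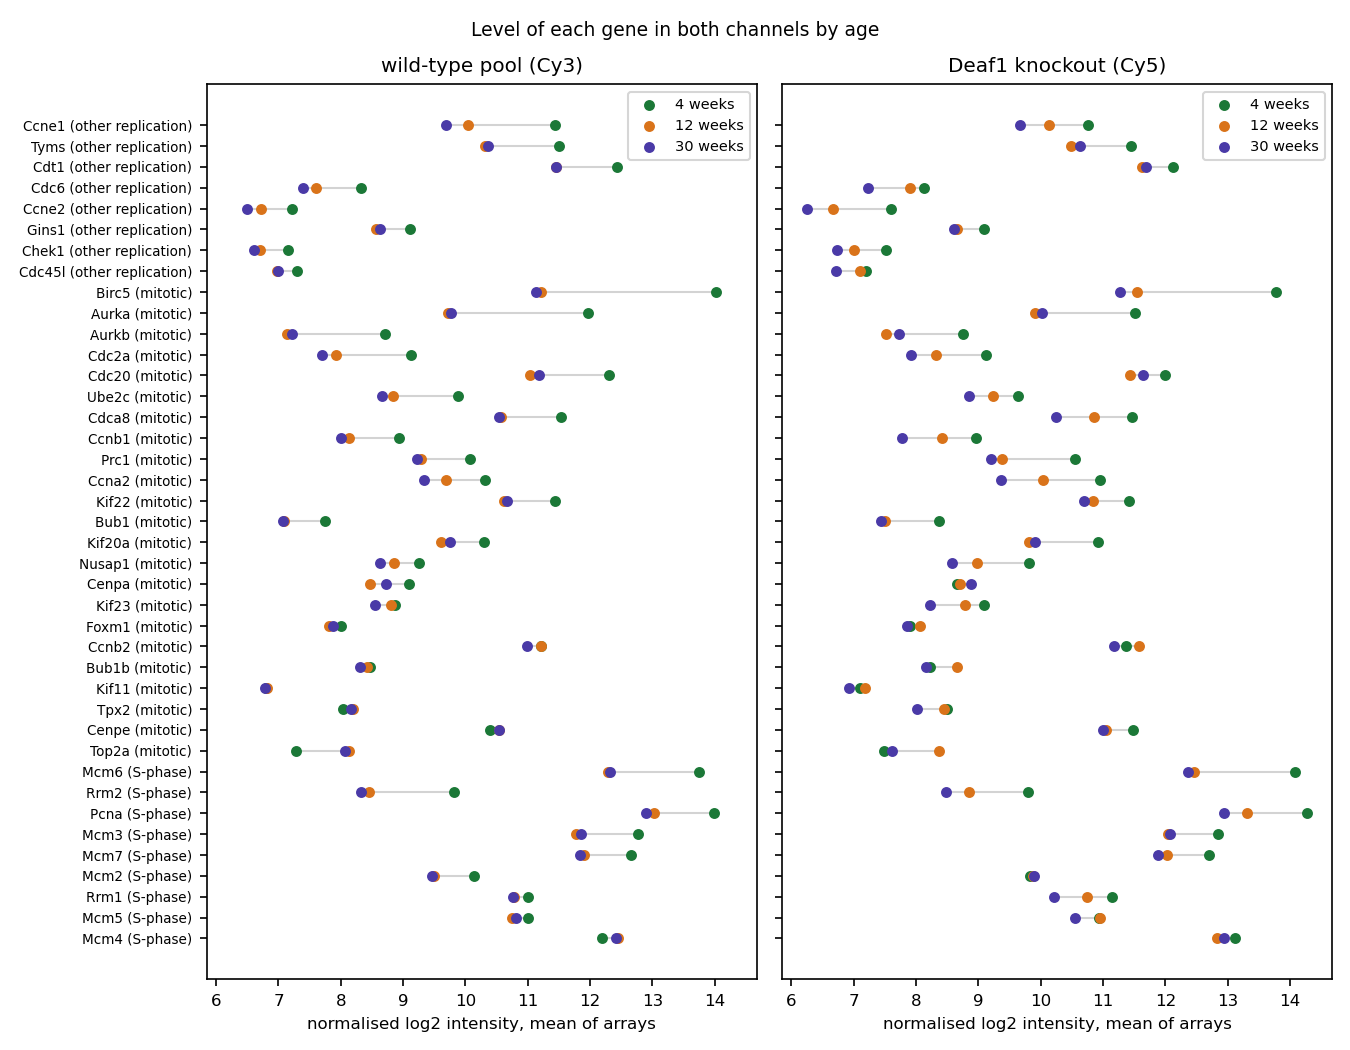
Mean normalised log2 intensity (x axis) of each gene (y axis, with its role) in the wild-type pools and the knockouts at 4 weeks (green), 12 weeks (orange) and 30 weeks (purple). The 4-week point is the rightmost for most genes in both panels, with Birc5 at 14.01 against 11.21 and 11.14 in the wild type.

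In the rest of the replication and division machinery the counts are read against the background given above for each age and direction, and they moved with the scaling. Of 38 other replication genes, 9 were called higher and 3 lower at 4 weeks, 1 higher at 12 weeks, and 8 higher and 8 lower at 30 weeks. Under median centring without loess the counts at 4 weeks were 31 and 0, at 12 weeks 35 and 0 and at 30 weeks 10 and 2, and the deposited value table gave 8 and 9 at 4 weeks. Usp1, the deubiquitinase of PCNA, was higher at 4 weeks by 0.96 ± 0.13 (limma adjusted p = 0.0022), and Uhrf1, which keeps DNA methylation through replication, read -0.60 ± 0.13 and turned to 0.29 under median centring without loess. At 30 weeks the subunits of the single-strand binding protein RPA parted, with Rpa3 at 0.76 ± 0.08 and Rpa2 at -0.81 ± 0.10. Chaf1a, of the histone chaperone CAF-1, was also lower at 30 weeks, at -0.57 ± 0.07.

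Of 53 other mitotic genes, 9 were higher and 2 lower at 4 weeks, 2 higher at 12 weeks, and 8 higher and 9 lower at 30 weeks. With the scanner's processed ratio 16 were higher and 0 lower at 4 weeks, and 9 higher and 5 lower at 30 weeks. Without loess the counts were 35 and 1 at 4 weeks, 40 and 0 at 12 weeks and 11 and 2 at 30 weeks. The condensin genes Smc2 and Smc4 were higher at 30 weeks, by 0.84 ± 0.10 and 0.53 ± 0.10, while Spc25 and Nuf2, both of the NDC80 kinetochore complex, were lower, at -0.61 ± 0.08 and -0.57 ± 0.09. Smc2, 0.49 ± 0.10, and Tacc3, a spindle protein, 0.43 ± 0.08, were the 2 called at 12 weeks (limma adjusted p = 0.0441 and 0.0420). Each of these 12-week calls was lost in 10 of 18 alternatives.

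Of 24 E2F, RB and MuvB regulators, 5 were higher at 4 weeks, 1 at 12 weeks and 10 at 30 weeks, with 1 lower at 30 weeks, E2f1 (-0.30 ± 0.09, limma adjusted p = 0.0362). The call on E2f1 was lost in 9 of 18 alternatives. At 4 weeks the deposited value table gave 6 higher and 5 lower, and median centring without loess 15 and 0, with 20 and 0 at 12 weeks. Ccnd1, cyclin D1, which opens the way to S phase by inactivating RB, was the 1 called at 12 weeks. It was higher at all 3 ages: 0.65 ± 0.08, 0.86 ± 0.07 and 0.57 ± 0.07. Tfdp2, an E2F partner, was higher at 30 weeks by 1.05 ± 0.13. Of 21 cell-cycle inhibitors, 5 were higher and 3 lower at 4 weeks, none was called at 12 weeks, and 6 were higher and 3 lower at 30 weeks, with Ccng2 at 0.93 ± 0.11 and Cdkn2d at -0.65 ± 0.09 at 4 weeks. Among the inhibitors no gene was called lower at 4 or 30 weeks with the scanner's processed ratio (5 higher at each) or without loess (14 and 8 higher). Cdkn2d turned to 0.27 under median centring without loess.

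Markers of some cell types stood apart from 0 beside the members' ratios, and others did not. Of 9 germinal-centre B-cell markers 6 were measured, with medians of 0.70 and 0.39 at 4 weeks, 0.52, 0.07 and -4.2e-05 at 12 weeks, and 0.34, -0.14 and -0.54 at 30 weeks. Within each age, replicate 1 was the highest for these markers as it was for most members. Their summed level ran from 53.65 to 55.19 log2 units in the wild-type pools and from 52.34 to 59.40 in the knockouts. On 12-week replicate 3, where these markers were at 0, the member median was 0.14. The 8 T-cell markers had medians of -0.48, 0.05 and 0.05 at 12 weeks and -0.34, -0.33 and -0.24 at 30 weeks. Called lower at 30 weeks were 4 of these 8, 3 of 8 B-cell, 3 of 7 macrophage and 2 of 7 plasma-cell markers. The share of all genes called lower there was 18.3%, and 1 B-cell marker was called higher. At 4 weeks, 4 of 7 fibroblastic reticular markers (median 0.79) and 3 of 8 B-cell markers (median 0.38) were called higher. Also higher were 2 of 6 germinal-centre and 2 of 7 macrophage markers, beside 15.3% of all genes. Lower were 3 of 7 erythroid markers (median -0.71) and 2 of 7 macrophage markers, beside 7.35% of all genes. The plasma-cell markers had a median of 0.0061 at 4 weeks, with 1 of 7 called higher. The 7 adipocyte markers had medians of -1.49 and -0.56 at 4 weeks and -1.53, -1.60 and -0.02 at 12 weeks. At 30 weeks they had -0.02, -0.41 and 0.40. Of these 7, 1 was called lower at 4 weeks and none at the later ages. The 5 immature-thymocyte markers measured had medians of -1.05, 0.13 and 1.04 at 30 weeks, with 1 called higher there, beside 20.8% of all genes. The part of these cells in the members' ratios was not tested.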

How the data were processed

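Each array measured 1 knockout sample (Cy5) against a wild-type pool (Cy3). The deposited scanner files hold mean and background spot intensities on a linear scale, made with Agilent Feature Extraction 9.5.3.1 (4 weeks) and 10.2.1.3 (12 and 30 weeks), per the file headers, and that software's processed ratio as log10 of Cy5 over Cy3. The deposited value table holds log2 ratios whose centring by the authors is not given in the sources used here. An alternative used each of these.

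Here, with limma 3.58.1 in R 4.3.3, intensities were background-corrected (normexp, offset 50) and normalised by loess within arrays, control spots at weight 0. Outlier-flagged spots were dropped, spots of a probe averaged, and a probe kept if every array of some age read it well above background in one and the same channel (27464 of 41174 probes). The brightest kept probe stood for each gene. Levels came from quantile normalisation of average brightness after loess. The moderated test, 2-sided, used 1 mean per age over all 8 arrays. On simulated data at 30 weeks (18478 genes) it recovered 39% of log2 changes of 0.4 and 93% of changes of 1, with 9 false calls.

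Members and gene lists were chosen with earlier results of these data known. Full statistics are given for up to 3 members of smallest p per contrast and role and for called members, for up to 2 genes per direction and age from each other list, and for Deaf1. Replicates are those the labels name, and whether arrays of an age share 1 pool preparation is not stated.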

Additional observations from a re-analysis of the deposited data

Results flagged for a closer look

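Differences between ages passed limma's test (adjusted p under 0.05 over all genes) for 13 results, all of them against 4 weeks, whose arrays have their own slide, scanner, software and wild-type pool. For 12 minus 4 weeks these were Ccne1 at 0.77, Mcm2 at 0.69, Ube2c at 0.64 and Mcm4 at -0.54. For 30 minus 4 weeks the higher ones were Cdc20 at 0.78, Mcm2 at 0.74, Aurka at 0.69, Ccne1 at 0.64, Cenpa at 0.61 and Cdt1 at 0.55, and the lower ones Rrm1 at -0.70, Top2a at -0.65 and Tpx2 at -0.60. Each 4-week array was also used as the lone 4-week array, assumed to vary like the other ages. Such a fit has no spread of its own at 4 weeks, so only sizes are given here. All 13 kept their direction in both fits, with Ube2c at 0.75, Mcm2 at 0.71 for 30 minus 4 weeks and Aurka at 0.70 with replicate 2 alone.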

How the results depend on the processing

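The number of members called moved by over 1.5 times under these alternatives, whose causes were not tested. With the scanner's processed log ratio 6 were called at 30 weeks, 0 for 12 minus 4 weeks and 3 for 30 minus 4 weeks. The shares of all genes called were 30%, 4.09% and 15.7%. With median centring and no loess 30 were called at 4 weeks, 37 at 12 weeks and 0 for 12 minus 4 weeks. The shares of all genes were 52.9%, 56% and 0.276%, and the median of all genes was 0.49 at 4 weeks and 0.41 at 12 weeks. At 12 weeks 1 was called without the filter on dim probes and 1 with the GC trend removed, beside 1.85% and 2.1% of all genes. With both channels well above background on all arrays 14 of 36 were called at 4 weeks, 2 at 12 weeks and 7 for 12 minus 4 weeks. All genes had shares of 37%, 4.64% and 13.5%. With slide as a random block (correlation -0.26) the counts were 18 at 4 weeks and 35 at 12 weeks, beside 35.9% and 48.8% of all genes. The differences gave 16 for 12 minus 4 weeks, 9 for 30 minus 12 weeks and 16 for 30 minus 4 weeks. The shares of all genes there were 24.3%, 12.7% and 32.7%. With array weights 21 members were called at 30 weeks and 4 for 30 minus 12 weeks, beside 55.3% and 18.7% of all genes. Leaving out 1 of the 12- or 30-week arrays gave 5 to 14 at 4 weeks, 0 to 4 at 12 weeks and 3 to 14 at 30 weeks. The shares of all genes were 17.5% to 28.1%, 0.0974% to 10.1% and 21.4% to 43.3%. For 12 minus 4 weeks it gave 2 to 5, beside 2.66% to 9.61%. For 30 minus 12 weeks it gave 0 to 4, beside 0% to 15%, and for 30 minus 4 weeks 3 to 14, beside 8.57% to 24.9%.

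With a replicate block 2 members were called at 12 weeks, beside 1.59% of all genes. Same-numbered samples deviated together with correlations of only -0.08 to 0.24, so the numbers were not taken to pair the samples.

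Under median centring without loess the S-phase minus mitotic medians were 0.22 at 4 weeks, 0.15 at 12 weeks and 0.15 at 30 weeks. There the 4-week ratios turned sign for Ccne1 (0.22), Cdt1 (0.59), Cenpa (0.22), Mcm2 (0.56), Rpa2 (0.33), Uhrf1 (0.29), Bub3 (0.59), Cdc25b (0.41), Cdkn2d (0.27), Klf2 (0.47) and Deaf1 (0.39). The 30-week ratios did so for Cdca8 (0.026), Mcm5 (0.059), Btg1 (0.39) and Cdkn2c (0.011), and Deaf1 at 4 weeks also with the GC trend removed (0.0060). Over 99 named results and 1782 comparisons, 1427 kept direction and side of the threshold, 240 no longer passed, 99 newly passed and 16 turned sign.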
